A study of Mus musculus with 2 samples.

Results

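Genes that store, move and sense iron were followed across the cell classes of mouse optic nerves, measured as single cells in 1 vancomycin and 1 control library. They are the ferritin heavy chain gene Fth1, the ferritin light chain gene Ftl1 and its near-copy Ftl1-ps1, the uptake genes Trf, Tfrc and Slc11a1, the export genes Slc40a1 and Heph, the heme-degrading enzyme gene Hmox1 and the sensor gene Ireb2. These 10 of the 32285 genes counted were chosen by name, with their levels by cell class and the gaps between the libraries already known. The values below are therefore a description, and no test was made of them. The mice were Nf1-OPG mice, in which Cre under the GFAP promoter removes Nf1 from neuroglial progenitors while all other cells carry 1 disrupted Nf1 allele, a model of low-grade glioma of the optic nerve. Vancomycin, an antibiotic, was given from 6 to 12 weeks of age to the first group, and the second is labelled control, with PBS named in the series design as the alternative. Both groups carry the same Nf1 alleles, and optic nerves of 10 mice aged 12 weeks were pooled into each library, so there was no replicate of either group. The labels' protocols describe both optic nerve and dura, the outer membrane, and name optic nerve as the tissue of both libraries.

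The vancomycin library held 144451114 UMIs (unique molecular identifiers, 1 per captured RNA) in 16596 barcodes, and the control library held 25609899 UMIs in 4272 barcodes. Cells were given to a class by fixed marker genes, and a class is called X-like. Gating placed 78.7% of 15726 kept vancomycin cells and 76.9% of 4108 kept control cells. At least 50 cells were found in 15 classes of the vancomycin library and in 7 of the control library, and these 7 were compared. The control library had 0 oligodendrocyte-like cells, the main glial cell of an optic nerve, against 4050 in the vancomycin library, although both libraries are labelled optic nerve. The libraries were counted with different versions of the software, so treatment, preparation and software version cannot be told apart in any difference between them. They shared 100 cell barcodes, 2.34% of those of the control library. In the plasma cell-like class the 10 leading genes were all immunoglobulin variable genes in both libraries, none of them a marker of any class. In every other class the class's own markers outnumbered those of each other class among the 10 leading genes.

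Ferritin is a hollow shell of heavy and light chains that holds iron in a harmless form. The heavy chain oxidises iron so that it can enter the shell, and the light chain helps the mineral form. Transferrin (Trf) carries iron between cells, the transferrin receptor (Tfrc) takes it in, ferroportin (Slc40a1) lets it out, and hephaestin (Heph) oxidises it on the way out. When iron is scarce, iron regulatory proteins, of which Ireb2 encodes one, bind hairpins in RNA called iron-responsive elements. A hairpin in the 5′ untranslated region blocks translation, and hairpins in the 3′ untranslated region of Tfrc protect that RNA from decay. In nervous tissue, oligodendrocytes are known for high iron, ferritin and transferrin, and macrophages for taking iron from heme.

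The hairpins are shown because they are the shared control element of storage, export and uptake genes, and RNA levels do not report the translation they set. A search of GENCODE M21 transcripts (GRCm38, the assembly of mm10) for a C, 5 paired bases and the loop CAGTGN, in which N was not G, found them in 5 of the 10 genes. The capitals mark the loop.
Fth1 5′ UTR, chr19:9982732-9982760, plus strand: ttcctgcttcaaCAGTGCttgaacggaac
Ftl1 5′ UTR, chr7:45459779-45459807, minus strand: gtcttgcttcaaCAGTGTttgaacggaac
Ftl1-ps1 5′ UTR, chr13:74406428-74406456, plus strand: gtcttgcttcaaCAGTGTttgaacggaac
Slc40a1 5′ UTR, chr1:45925465-45925493, minus strand: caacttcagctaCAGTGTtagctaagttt
Tfrc 3′ UTR, chr16:32631219-32631247, plus strand: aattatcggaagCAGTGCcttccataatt
Tfrc 3′ UTR, chr16:32631598-32631626, plus strand: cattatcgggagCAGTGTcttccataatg
Tfrc 3′ UTR, chr16:32631663-32631691, plus strand: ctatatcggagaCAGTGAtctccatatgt
Tfrc 3′ UTR, chr16:32631710-32631738, plus strand: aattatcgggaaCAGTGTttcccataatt
The same pattern lies in the 5′ UTR of 0.097% and in the 3′ UTR of 0.453% of 21630 coding genes. A match to the pattern is a description of the letters, not a measured site.

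Fth1 (ENSMUSG00000024661, chr19:9980598-9985098, plus strand), the heavy chain, was highest in oligodendrocyte-like cells. Its level there was 25289 CPM (UMIs of the gene per 1000000 UMIs of the class; 95% Poisson interval 25242 to 25336, which like all intervals here covers counting error only). That was 2.53% of all UMIs of the class. Monocyte-like cells came next at 11032 CPM, and oligodendrocyte-like cells exceeded them 2.29-fold (2.22 to 2.36). The other phagocytes followed, with 9266 CPM in border-associated macrophage-like cells, 7758 CPM in microglia-like cells and 7284 CPM in cDC2-like cells (conventional dendritic cells of the second kind). Fibroblast-like cells had 6664 CPM, and endothelial cell-like, mature dendritic cell-like, astrocyte-like, NK cell-like, cDC1-like and T cell-like cells lay between 4608 and 3581 CPM. The lowest levels were 2718 CPM in B cell-like cells, 2058 CPM in oligodendrocyte precursor-like cells and 1093 CPM in plasma cell-like cells. Precursors thus stood far below the mature oligodendrocyte-like cells of the same library. Of the 14 neighbouring pairs in this order, 3 had intervals that overlapped.

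Within the control library the order of Fth1 was similar at its ends. It was highest in cDC2-like cells at 7915 CPM and in microglia-like cells at 6928 CPM. It was lowest in oligodendrocyte precursor-like cells at 705 CPM and in plasma cell-like cells at 488 CPM, with fibroblast-like cells at 4430 CPM, T cell-like cells at 2813 CPM and NK cell-like cells at 2358 CPM between. None of the 6 neighbouring pairs overlapped. The high level of the vancomycin oligodendrocyte-like cells was not made by a few cells. The median cell had 25217 CPM, and the cells at the 10th and 90th percentile had 15466 and 38357 CPM.

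**Figure D1:**
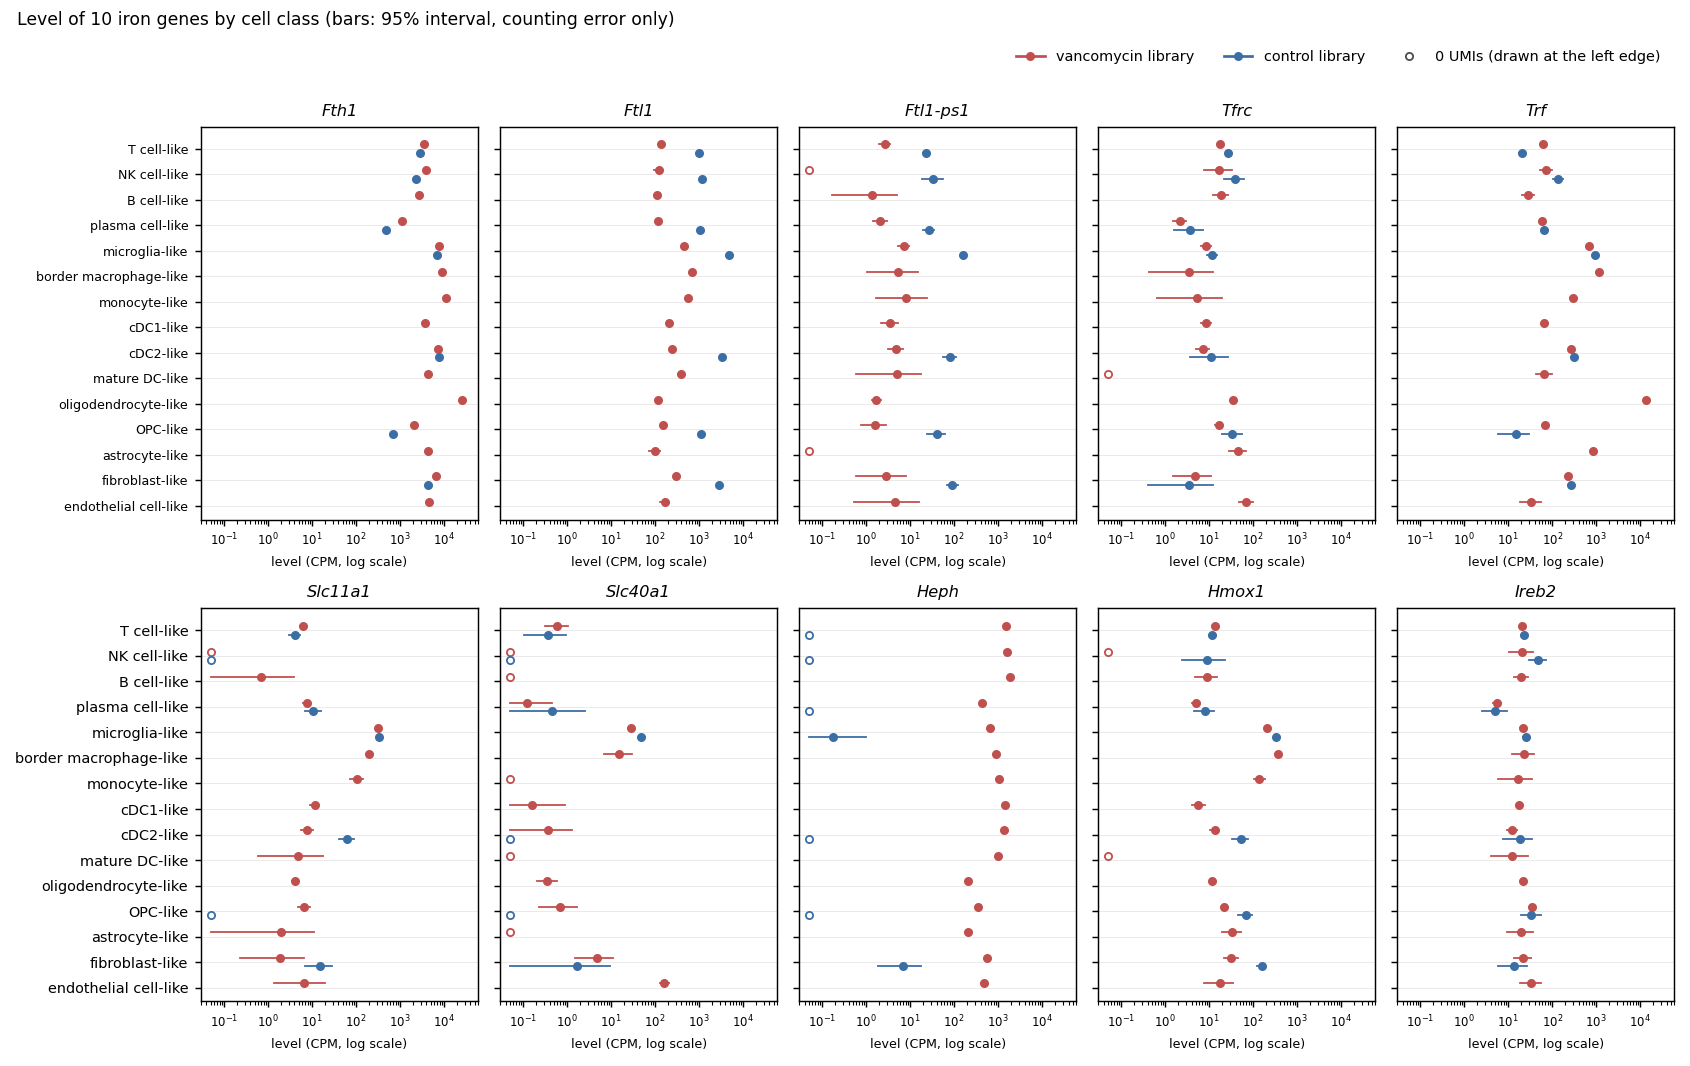
Level of each of the 10 genes (CPM, log scale) in each cell class, with the vancomycin library in red above the control library in blue. Bars are 95% Poisson intervals and open circles mark 0 UMIs; OPC is oligodendrocyte precursor, DC dendritic cell. Fth1 and Trf peak in oligodendrocyte-like cells at 25289 and 13581 CPM, and Heph lies at or near 0 in the control library.

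Ftl1 (ENSMUSG00000050708, chr7:45457944-45459884, minus strand), the light chain, was highest in the macrophage classes and not in oligodendrocyte-like cells. In the vancomycin library it stood at 688 CPM (622 to 759) in border-associated macrophage-like cells, 572 CPM in monocyte-like cells, 464 CPM in microglia-like cells and 384 CPM in mature dendritic cell-like cells. Oligodendrocyte-like cells had 120 CPM (117 to 123), close to the 136 CPM of T cell-like cells, and astrocyte-like cells were lowest at 97.8 CPM. Microglia-like cells were also highest in the control library, at 4694 CPM (4638 to 4751). cDC2-like cells followed there at 3374 CPM and fibroblast-like cells at 2822 CPM. The NK cell-like, oligodendrocyte precursor-like, plasma cell-like and T cell-like cells of the control lay between 1147 and 994 CPM. Among neighbours in the order, 11 of 14 pairs in the vancomycin library and 3 of 6 in the control library had intervals that overlapped.

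Ftl1-ps1 (ENSMUSG00000062382, chr13:74399694-74407346, plus strand), counted as a gene of its own, was a minor part of the light chain UMIs. Its highest level was 8.13 CPM in monocyte-like cells of the vancomycin library and 156 CPM in microglia-like cells of the control library. The coding sequences of Ftl1 and Ftl1-ps1 differ at 2 of 549 bases, and both differences lie in 1 stretch of 150 bases, shown here because it is all that tells their coding reads apart. Capitals mark the bases that differ. In Ftl1 the stretch spans an intron between chr7:45458535-45458555 and chr7:45458155-45458283, and in Ftl1-ps1 it is chr13:74406958-74407107.
Ftl1: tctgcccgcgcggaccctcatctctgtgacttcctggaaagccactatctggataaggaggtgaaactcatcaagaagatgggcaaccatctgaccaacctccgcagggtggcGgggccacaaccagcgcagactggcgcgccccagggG
Ftl1-ps1: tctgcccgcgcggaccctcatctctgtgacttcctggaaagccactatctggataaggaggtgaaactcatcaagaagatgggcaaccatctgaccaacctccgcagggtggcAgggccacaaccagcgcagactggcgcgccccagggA
Reads of the pair can be split between them or lost, so they were also summed. M21 holds 5 copies of Ftl1 that are at least 95% identical over at least 100 bases, apart from microRNA entries inside them. Of these, 4 are not counted as genes in the deposited table and 2 lie in introns of counted genes. Fth1 has 0 such copies.

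The balance of heavy to light chain set oligodendrocyte-like cells apart within the vancomycin library. They had 208 Fth1 UMIs (202 to 213) per UMI of Ftl1 plus Ftl1-ps1. Astrocyte-like cells came next at 43.5 (32.9 to 58.8), T cell-like cells had 25.9, microglia-like cells 16.5 and border-associated macrophage-like cells 13.4. Oligodendrocyte precursor-like cells had 13.7 (12.8 to 14.6) and plasma cell-like cells were lowest at 8.98 (8.58 to 9.42). Control values ran from 0.455 (0.423 to 0.490) in plasma cell-like cells and 0.622 in oligodendrocyte precursor-like cells to 2.77 (2.71 to 2.83) in T cell-like cells. These are UMIs of the 5′ kit and not scaled to RNA length, so they compare classes and give no ratio of protein chains. Plasma cell-like cells were lowest in both libraries, and the 15 vancomycin values all lay above the 7 control values. Treatment, preparation and software version cannot be told apart in that gap. The light chain UMIs leave out those counted for Grik3, whose intron holds a copy of the Ftl1 sequence. In vancomycin oligodendrocyte-like cells Grik3 had 269 CPM, against 120 CPM of Ftl1. Microglia-like cells had 842 CPM of Grik3 with vancomycin and 0 UMIs in the control. The part of Grik3 UMIs in these ratios was not tested.

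**Figure D2:**
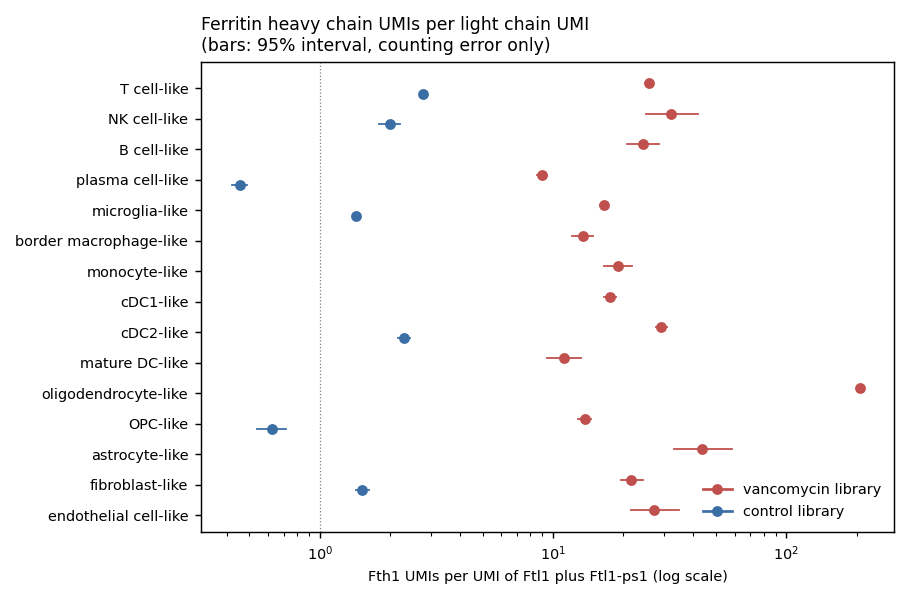
Fth1 UMIs per UMI of Ftl1 plus Ftl1-ps1 (log scale) by cell class, vancomycin library in red above control library in blue, with 95% intervals for counting error; the dotted line marks a ratio of 1. Oligodendrocyte-like cells stand at 208 in the vancomycin library, and the control classes lie between 0.455 and 2.77. UMIs counted for Grik3, whose intron holds a copy of the Ftl1 sequence, are not among the light chain UMIs.

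Trf (ENSMUSG00000032554, chr9:103204001-103230444, minus strand), which encodes the iron carrier of the blood and is also made by glia, was highest by far in oligodendrocyte-like cells of the vancomycin library. It stood at 13581 CPM (13547 to 13615) in oligodendrocyte-like cells, 11.9-fold (11.1 to 12.9) above the next class. After thinning each cell to 1000 UMIs, 99.4% of these cells still had a Trf UMI (unthinned 99.7%). The next levels were 1137 CPM in border-associated macrophage-like cells, 829 CPM in astrocyte-like cells, 700 CPM (680 to 720) in microglia-like cells, 304 CPM in monocyte-like cells, 261 CPM in cDC2-like cells and 226 CPM in fibroblast-like cells. The remaining 8 classes, from NK cell-like to B cell-like cells, lay between 74.0 and 28.8 CPM. Oligodendrocyte precursor-like cells were among them at 67.4 CPM.

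T cell-like cells, which should lack Trf, were taken as the background class for free RNA. They had 62.7 CPM in the vancomycin library and 20.1 CPM in the control library, and thinned shares of cells with a Trf UMI of 4.74% (unthinned 15%) and 1.17% (unthinned 4.98%), at median depths of 4123.5 and 5160.5 UMIs. Oligodendrocyte precursor-like cells had a thinned share of 6.46% (4.98 to 8.22) in the vancomycin library, near its T cell-like share (4.08 to 5.48). Their control share of 6.25% (1.31 to 17.2) stood above that of control T cell-like cells (0.728 to 1.79). It rests on 3 of 48 cells, and the 2 intervals overlap. Microglia-like cells had 49.8% (46.3 to 53.2) and 59.8% (56.3 to 63.2), at median depths of 6541 and 6210 UMIs. The myelin gene Mbp, another RNA of oligodendrocytes, kept no fixed proportion to Trf across classes. Oligodendrocyte-like cells had 2.0 Trf UMIs per Mbp UMI and border-associated macrophage-like and microglia-like cells had 1.51 and 1.10, whereas T cell-like cells had 0.0691 and endothelial cell-like cells 0.0284. Mbp was 6780 CPM in oligodendrocyte-like and 909 CPM in T cell-like cells of the vancomycin library. The 8 markers of the oligodendrocyte-like class summed to 12571 CPM and 40.4 CPM in the same classes. They summed to 44.9 CPM in border-associated macrophage-like, 48.8 CPM in microglia-like and 35.6 CPM in endothelial cell-like cells. Trf in these classes was 1137, 700 and 33.4 CPM. The part of free oligodendrocyte RNA in the Trf of the macrophage classes was not tested. In the control library, where Mbp was 51.3 CPM in microglia-like cells, Trf stood highest in those cells at 943 CPM (918 to 968), 2.98-fold (2.52 to 3.55) above cDC2-like cells at 317 CPM.

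**Figure D3:**
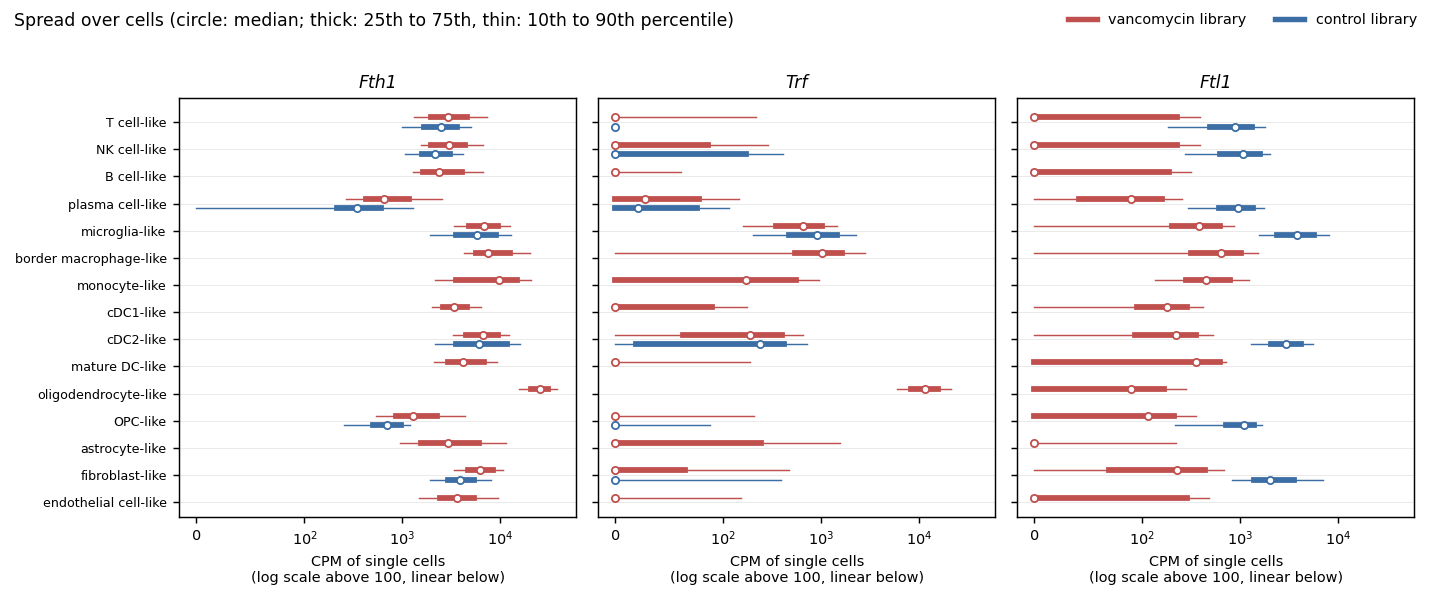
Spread of Fth1, Trf and Ftl1 over single cells (CPM, log scale above 100) by class, vancomycin library in red above control library in blue; circles are medians, thick bars the 25th to 75th and thin bars the 10th to 90th percentile. The median oligodendrocyte-like cell had 25217 CPM of Fth1 and 11370 CPM of Trf, and the median microglia-like cell 646 CPM of Trf in the vancomycin library and 897 CPM in the control.

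In astrocyte-like and fibroblast-like cells Trf was held by a minority of cells. The median cell of either class had 0 Trf UMIs, while the astrocyte-like cell at the 90th percentile had 1541 CPM. The 8 oligodendrocyte markers summed to 102 CPM in astrocyte-like and 104 CPM in fibroblast-like cells, against 40.4 CPM in T cell-like and 12571 CPM in oligodendrocyte-like cells. Their part in the Trf of these classes was not tested. In oligodendrocyte-like cells, by contrast, the cells at the 10th and 90th percentile had 5993 and 21273 CPM.

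Tfrc (ENSMUSG00000022797, chr16:32608920-32632794, plus strand), the receptor that brings transferrin into the cell, was low in all classes. In the vancomycin library it was highest in endothelial cell-like cells at 69.0 CPM (46.9 to 97.9), astrocyte-like cells at 45.0 CPM (28.5 to 67.5) and oligodendrocyte-like cells at 35.4 CPM (33.7 to 37.2). The first of these did not exceed the next beyond counting error (1.53-fold, 0.866 to 2.76). T cell-like and B cell-like cells followed at 17.8 and 18.5 CPM, and the macrophage and dendritic classes lay at 8.63 CPM or below, with 0 UMIs in mature dendritic cell-like cells, which allows up to 7.38 CPM (3 counts). Control levels ran from 38.2 CPM (22.2 to 61.1) in NK cell-like cells to 3.41 CPM in fibroblast-like cells. Brain endothelium is known for this receptor, and only 1 endothelial cell-like cell was found in the control library.

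Slc11a1 (ENSMUSG00000026177, chr1:74375195-74386062, plus strand) encodes a transporter that moves iron out of the phagosomes of macrophages. It was highest in the macrophage classes of the vancomycin library. In the control library it was highest in microglia-like cells, the only macrophage class there with at least 50 cells. The vancomycin levels were 325 CPM (311 to 339) in microglia-like cells, 200 CPM in border-associated macrophage-like cells and 106 CPM in monocyte-like cells. The other 12 classes had at most 11.8 CPM, and T cell-like cells, which should lack it, had 6.42 CPM. In the control library microglia-like cells had 343 CPM (328 to 358), 5.61-fold (3.85 to 8.54) above the 61.1 CPM of cDC2-like cells, and T cell-like cells had 4.06 CPM. Thinned shares of microglia-like cells with a UMI were 26.3% and 24.2% (unthinned 80.1% and 70.5%), against 0.217% and 0.447% of T cell-like cells (unthinned 1.46% and 0.93%).

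Slc40a1 (ENSMUSG00000025993, chr1:45908068-45926523, minus strand), the iron exporter ferroportin, was found mainly in endothelial cell-like cells and microglia-like cells. Its level was 162 CPM (127 to 204) in endothelial cell-like cells of the vancomycin library, 5.76-fold (4.33 to 7.60) above the 28.2 CPM of microglia-like cells. Border-associated macrophage-like cells had 15.5 CPM from 9 UMIs, fibroblast-like cells 4.69 CPM from 5 UMIs, and oligodendrocyte-like cells, with 44676296 UMIs in all, 0.358 CPM. In the control library microglia-like cells had 47.9 CPM (42.4 to 54.0), and 3 of the other 6 classes had 0 UMIs. Endothelial cell-like cells thus had the highest level of Slc40a1 in the vancomycin library, from 73 UMIs. For Tfrc, with 31 UMIs, they exceeded astrocyte-like cells only within counting error. The same class had the highest level of the haemoglobin gene Hbb-bs in that library, at 32836 CPM. The part of red cell RNA in its Tfrc and Slc40a1 was not tested.

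Heph (ENSMUSG00000031209, chrX:96455359-96574485, plus strand), a ferroxidase that acts beside ferroportin, showed a pattern over classes unlike that of any other member. In the vancomycin library it was highest in lymphocytes, at 1846 CPM in B cell-like, 1619 CPM in NK cell-like and 1551 CPM in T cell-like cells. It was 1423 CPM in cDC1-like and 1352 CPM in cDC2-like cells, between 1060 and 350 CPM in 8 classes, and lowest at 211 CPM in both oligodendrocyte-like and astrocyte-like cells. An intron of Heph holds a near-copy of the ribosomal protein gene Rpl17 (99.7% identical over 620 bases). The vancomycin levels cannot be told apart from UMIs of that copy, so they are not read as Heph RNA of these classes. Of the 7 control classes, 5 had 0 UMIs. The exceptions were fibroblast-like cells with 4 UMIs (6.82 CPM, 1.86 to 17.5) and microglia-like cells with 1 UMI.

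Hmox1 (ENSMUSG00000005413, chr8:75093621-75100589, plus strand), heme oxygenase 1, which frees iron from heme, was highest in macrophages. The vancomycin levels were 365 CPM (317 to 417) in border-associated macrophage-like, 203 CPM (192 to 214) in microglia-like and 138 CPM in monocyte-like cells, and at most 33.2 CPM elsewhere. In the control library microglia-like cells had 328 CPM (313 to 343), fibroblast-like cells 155 CPM, oligodendrocyte precursor-like cells 67.2 CPM and cDC2-like cells 52.0 CPM. Border-associated macrophage-like cells thus led for Ftl1 and Hmox1 in the vancomycin library and came second for Trf and Slc11a1, and only 3 such cells were gated in the control.

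Ireb2 (ENSMUSG00000032293, chr9:54863789-54912530, plus strand), the iron regulatory protein that binds the hairpins shown above, was at a low level in each class. In the vancomycin library it ran from 34.1 CPM (29.9 to 38.7) in oligodendrocyte precursor-like cells, with a median of 20.2 CPM over the 15 classes, to 5.59 CPM in plasma cell-like cells. Its control levels ran from 47.2 CPM (29.2 to 72.1) in NK cell-like cells to 5.12 CPM in plasma cell-like cells. The intervals overlapped in 13 of 14 neighbouring pairs of the vancomycin library and in all 6 of the control. On the full total plasma cell-like cells were lowest for Fth1 and Ireb2 in both libraries. The total each gene is scaled to includes immunoglobulin RNA. Without immunoglobulin, ribosomal protein, haemoglobin and mitochondrial genes in the total, Fth1 was lowest in oligodendrocyte precursor-like cells, at 2288 CPM with vancomycin and 762 CPM in the control, below plasma cell-like cells at 3354 CPM with vancomycin and 1647 CPM in the control.

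Between the libraries, a gene was counted as at least 2-fold different in a class where the log2 ratio of vancomycin over control, with 10 CPM added to both, was at least 1 in size and both libraries together held at least 50 UMIs. Over the 7 classes, 52 pairs of a member and a class were measured, of which 11 were at least 2-fold higher with vancomycin and 16 lower. The gaps of Ftl1 and Heph were known when the members were chosen, so nothing about the list is read from these counts. In T cell-like cells Trf and Heph were higher and Ftl1 and Ftl1-ps1 lower among 9 measured members, where 2.31% of all 11916 measured genes were higher and 1.18% lower. In NK cell-like cells Heph was higher and Ftl1 lower among 4 measured members, beside 4.16% higher and 5.11% lower of all genes. In plasma cell-like cells Fth1 and Heph were higher and Ftl1 and Ftl1-ps1 lower among 8, beside 2.55% and 1.02% of all genes.

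In microglia-like cells, where all 10 members were measured, Heph was higher and Ftl1 and Ftl1-ps1 lower, beside 2.65% higher and 2.22% lower of all genes. In cDC2-like cells Heph was higher and Ftl1, Ftl1-ps1, Slc11a1 and Hmox1 lower among 8, beside 5.95% and 2.94%. In oligodendrocyte precursor-like cells Fth1, Trf and Heph were higher and Ftl1 and Hmox1 lower among 7, beside 5.21% and 2.22%. In fibroblast-like cells Heph was higher and Ftl1, Ftl1-ps1 and Hmox1 lower among 6, beside 2.39% and 2.86%. The median log2 ratio of the measured members ran from -1.12 in fibroblast-like to 0.11 in T cell-like cells, and that of all genes from -0.09 in NK cell-like to 0.12 in cDC2-like cells. Ftl1 and Heph were thus the members counted in every class, in opposite directions.

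**Figure D4:**
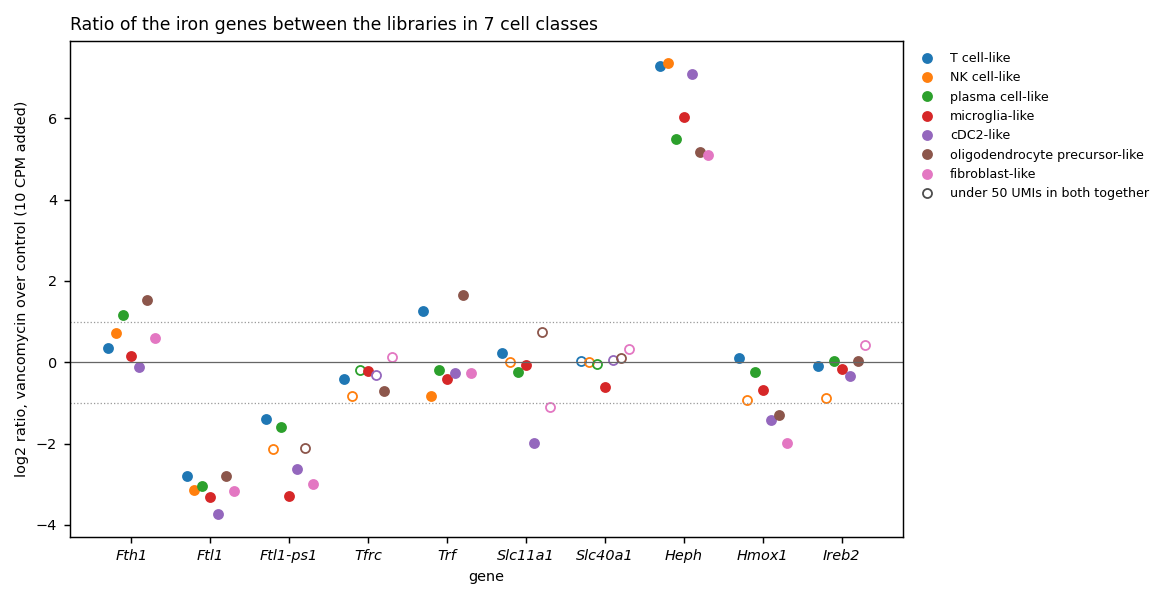
Log2 ratio of vancomycin over control (10 CPM added to both) for each gene in the 7 compared classes, in 1 colour per class; open circles have under 50 UMIs in both libraries together and dotted lines mark a 2-fold difference. Heph lies between 5.09 and 7.35 and Ftl1 between -3.73 and -2.79, while Fth1 spans -0.12 to 1.53.

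Fth1 was higher with vancomycin in 6 of the 7 classes and lower in cDC2-like cells, while Ftl1, the other chain of the shell, was lower in all 7. The Fth1 ratio of vancomycin to control was 1.12 (1.11 to 1.13) in microglia-like, 0.920 (0.889 to 0.953) in cDC2-like, 1.27 in T cell-like, 1.5 in fibroblast-like and 1.65 in NK cell-like cells, all short of 2-fold. It was 2.24 (2.10 to 2.38) in plasma cell-like cells, with 1093 CPM against 488 CPM, and 2.92 (2.62 to 3.26) in oligodendrocyte precursor-like cells, with 2058 CPM against 705 CPM. The plasma cell-like difference fell short of 2-fold with edgeR's or DESeq2's scaling (log2 ratios 0.97 and 0.95, against 1.15). Median cells lay closer than the class sums, at 644 CPM against 348 CPM in plasma cell-like cells. In oligodendrocyte precursor-like cells the medians were 1290 CPM against 698 CPM, and the 90th percentiles 4355 CPM against 1210 CPM. In oligodendrocyte precursor-like cells Mbp stood at 645 CPM against 63.0 CPM, and the 8 oligodendrocyte markers at 183 CPM against 155 CPM with 0 and 5 of them at 0. The part of free oligodendrocyte RNA in this difference was not tested.

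Ftl1 was lower in the vancomycin library in each of the 7 classes. Microglia-like cells had 464 CPM against 4694 CPM in the control (ratio 0.0988, 0.0952 to 0.103). The ratio was lowest in cDC2-like cells at 0.0727 (0.0675 to 0.0783), with 245 CPM against 3374 CPM, and highest in T cell-like cells at 0.136 (0.131 to 0.142), with 136 CPM against 994 CPM, and in oligodendrocyte precursor-like cells, also 0.136. Ftl1-ps1 was lower as well, at 7.09 CPM against 156 CPM in microglia-like cells (0.0456, 0.0331 to 0.0613). Summed over the pair, the ratios were 0.0724 to 0.136.

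Grik3, which holds a copy of the Ftl1 sequence, was higher with vancomycin in each of the 7 classes. An intron of Grik3, a kainate receptor gene of neural cells, holds Ftl2-ps (chr4:125504288-125504839, 98.7% identical to Ftl1 over 552 bases) on the strand of the gene. Grik3 had 842 CPM in vancomycin microglia-like cells and 0 UMIs in the control, and 250 CPM against 0 UMIs in T cell-like cells. Only oligodendrocyte precursor-like cells had Grik3 in the control (317 CPM against 33.6 CPM). Over the 15 vancomycin classes there were between 0.420 and 0.613 Ftl1 UMIs per Grik3 UMI, although Ftl1 itself ranged from 97.8 to 688 CPM. The sum of Ftl1, Ftl1-ps1, Grik3 and F630206G17Rik, whose intron holds another copy, was still lower in the vancomycin library in each of the 7 classes, with ratios from 0.221 (0.208 to 0.234) in cDC2-like to 0.406 (0.371 to 0.445) in oligodendrocyte precursor-like cells. Intron counting was not given in the sources used here, and the part of these loci in the Ftl1 difference was not tested.

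Heph was higher with vancomycin in each of the 7 classes. T cell-like cells had 1551 CPM against 0 UMIs, at least 5475-fold higher with the control class set to 3 counts, and the same bound was 55.5-fold in oligodendrocyte precursor-like cells, with 350 CPM against 0. Microglia-like cells had 649 CPM against 0.178 CPM from a single UMI (3657-fold, 656 to 144458), and fibroblast-like cells 563 CPM against 6.82 CPM (82.5-fold, 32.1 to 304). Introns make up 93.6% of the Heph locus, and one holds, on the same strand, Rpl17-ps8 (chrX:96484859-96485479), 99.7% identical over 620 bases to the ribosomal protein gene Rpl17.

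Rpl17 itself was lower in the vancomycin library, at 747 CPM against 1768 CPM in T cell-like cells (ratio 0.422, 0.413 to 0.432) and 326 CPM against 598 CPM in microglia-like cells (0.544). In T cell-like cells its log2 ratio was -1.23 where the median of 76 ribosomal protein genes was 0.15, and 0 of them were lower than it. Over the 15 vancomycin classes Heph and Rpl17 kept a narrow proportion, with 1.42 Heph UMIs per Rpl17 UMI in oligodendrocyte precursor-like cells, 1.61 in oligodendrocyte-like, 1.80 in astrocyte-like and 1.99 to 2.22 in the other 12 classes. Heph and Rpl17 summed gave 2297 CPM with vancomycin and 1768 CPM in the control in T cell-like cells (1.30, 1.28 to 1.32), and ratios from 1.30 to 1.94 over the 7 classes. The part of the copy in the Heph difference was not tested, and the Heph levels of the vancomycin library cannot be told apart from it.

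**Figure D5:**
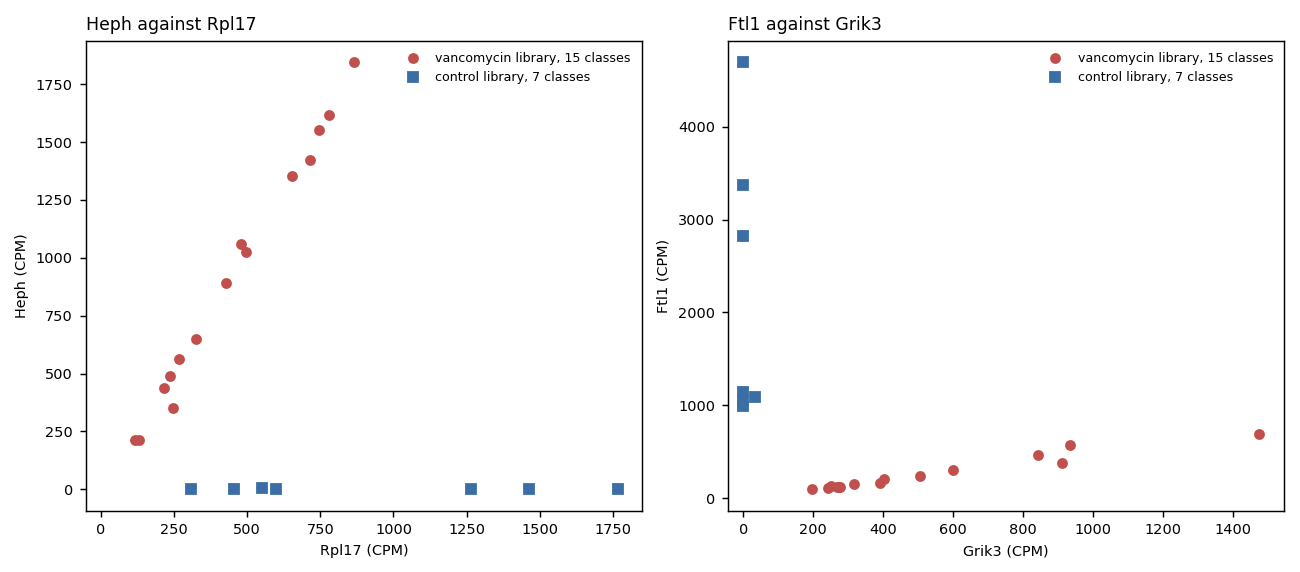
Left, Heph against Rpl17, and right, Ftl1 against Grik3 (CPM, linear axes), 1 point per class, with the 15 vancomycin classes as red circles and the 7 control classes as blue squares. Heph rises with Rpl17 and Ftl1 with Grik3 over the vancomycin classes, while Heph in the control stays at or below 6.82 CPM and Grik3 at or below 33.6 CPM.

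Trf was within 2-fold in 5 of the 7 classes. It stood at 700 CPM against 943 CPM in microglia-like cells (0.742, 0.713 to 0.772) and at 261 CPM against 317 CPM in cDC2-like cells (0.824), and its ratio was lowest in NK cell-like cells at 74.0 CPM against 139 CPM (0.532, 0.347 to 0.806). It was at least 2-fold higher in T cell-like cells, with 62.7 CPM against 20.1 CPM (3.12, 2.70 to 3.63), and in oligodendrocyte precursor-like cells, with 67.4 CPM against 14.7 CPM from 7 control UMIs (4.59, 2.21 to 11.5). Mbp was higher in each of the 7 classes, at 909 CPM against 115 CPM in T cell-like cells. The 8 oligodendrocyte markers stood at 40.4 CPM against 1.89 CPM in T cell-like cells. In oligodendrocyte precursor-like cells they stood at 183 CPM against 155 CPM. The part of free oligodendrocyte RNA in the Trf differences was not tested. The T cell-like log2 ratio of 1.27 was 0.69 with 50 CPM added, and that of oligodendrocyte precursor-like cells, 1.65, was 0.86 with 50 CPM added and 0.32 after thinning. The thinned value rests on Trf UMIs in 3 of 48 control cells. Tfrc was at 17.8 CPM against 27.1 CPM in T cell-like cells (0.659, 0.562 to 0.772) and at 16.7 CPM against 33.6 CPM in oligodendrocyte precursor-like cells (0.497, 0.293 to 0.897; log2 ratio -0.71 with 10 CPM added), and was too low to measure in 4 of the 7 classes.

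Slc11a1 was close in microglia-like cells, at 325 CPM against 343 CPM (0.949, 0.891 to 1.01). In cDC2-like cells it was lower, at 7.84 CPM against 61.1 CPM (0.128, 0.0775 to 0.216), a log2 ratio of -1.99 that was -0.94 with 50 CPM added. The control value rests on 27 UMIs in 54 cells, of which 40.7% lay near the gate. Slc40a1 was measured in microglia-like cells alone, at 28.2 CPM against 47.9 CPM (0.588, 0.485 to 0.712), short of 2-fold.

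Hmox1 was the third member, after the light chain pair, that was lower in several classes. It was 2-fold lower in fibroblast-like cells, at 31.9 CPM against 155 CPM (0.206, 0.134 to 0.308), in cDC2-like cells at 13.3 CPM against 52.0 CPM (0.256, 0.158 to 0.428) and in oligodendrocyte precursor-like cells at 21.5 CPM against 67.2 CPM (0.320, 0.217 to 0.484). In microglia-like cells it was 203 CPM against 328 CPM (0.619, 0.576 to 0.664), and in T cell-like cells 13.4 CPM against 11.7 CPM (1.15, 0.925 to 1.43). The cDC2-like log2 ratio of -1.41 was -0.18 with a stricter gate and -0.01 after thinning, where 1 of 53 control cells held an Hmox1 UMI. The oligodendrocyte precursor-like log2 ratio of -1.29 was -0.73 after thinning, where 2 of 48 control cells held one. The thinned values thus rest on very few control UMIs. Ireb2 was within 2-fold in all 5 classes that measured it, with log2 ratios from -0.34 to 0.04.

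Of 65 other iron genes in 8 roles, 273 pairs of a gene and a class were measured and 25 were at least 2-fold different. In microglia-like cells 1 of 48 was higher and 6 lower, beside 2.65% and 2.22% of all genes (median log2 ratio -0.02, all genes 0.02), and 4 of the lower ones were among the 7 measured genes of lipid peroxide defence, whose median was -1.43. Srxn1, which repairs oxidised peroxiredoxins, stood at 4.01 CPM against 112 CPM (0.0359, 0.0233 to 0.0531), and Txnrd1, a thioredoxin reductase, at 40.2 CPM against 227 CPM (0.177, 0.155 to 0.203). Slc7a11, the cystine importer, had 2.31 CPM against 25.6 CPM (0.0904, 0.0493 to 0.154), and Gclc, which makes glutathione's precursor, 35.0 CPM against 111 CPM (0.315, 0.270 to 0.367). The other lower genes were Bach1, a heme-binding repressor that is known to hold down Hmox1, at 59.2 CPM against 334 CPM (0.177, 0.158 to 0.198) and Slc11a2, the iron importer DMT1, at 20.3 CPM against 82.6 CPM (0.246, 0.201 to 0.299). Gpx4, the enzyme that removes lipid peroxides, was not among them, at 280 CPM against 253 CPM (1.11, 1.03 to 1.19).

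In cDC2-like cells 5 of 40 were higher and 6 lower, beside 5.95% and 2.94% of all genes (median log2 ratio 0.23, all genes 0.12). The control class held 54 cells, of which 40.7% lay near the gate. The higher ones were Alas2 and Alad of heme synthesis, Glrx5 and Fdx1 of iron-sulfur clusters, and Gclm of lipid peroxide defence. Gclm stood at 32.8 CPM against 9.05 CPM from 4 control UMIs (3.63, 1.39 to 13.5). Among the lower ones here too were Bach1 at 119 CPM against 360 CPM (0.331) and Txnrd1 at 72.9 CPM against 224 CPM (0.326). Slc11a2 was another, at 9.66 CPM against 49.8 CPM from 22 control UMIs (0.194). Lrp1, which takes up heme bound to hemopexin, was also lower there at 30.6 CPM against 111 CPM (0.276, 0.200 to 0.388). At most 2 of the other iron genes were 2-fold different in any of the remaining classes, with 1 of 47 higher and 0 lower in T cell-like cells, near the 2.31% and 1.18% of all genes. In oligodendrocyte precursor-like cells Nfe2l2, a regulator of antioxidant genes, was higher at 25.2 CPM against 2.10 CPM from a single control UMI (12.0, 2.12 to 476) and Srxn1 was lower at 17 CPM against 46.2 CPM (0.367).

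Among heme synthesis genes, Alas1, the first enzyme of the pathway in most cells, was lower in cDC2-like cells at 20.8 CPM against 58.8 CPM (0.353, 0.229 to 0.564), and the other differences of at least 2-fold were higher. Alas2, the heme synthesis enzyme of red cell precursors, was higher in T cell-like cells (29.6 CPM against 2.64 CPM), microglia-like cells (29.9 CPM against 0.178 CPM), cDC2-like cells (13.1 CPM against 0 UMIs) and fibroblast-like cells (74.1 CPM against 0 UMIs, at least 14.5-fold). The haemoglobin gene Hbb-bs moved with it, at 5512 CPM against 799 CPM in T cell-like, 6258 CPM against 28.6 CPM in microglia-like, 2725 CPM against 9.05 CPM in cDC2-like and 17525 CPM against 42.6 CPM in fibroblast-like cells. The 7 erythroid markers found in the table summed to at most 15.5 CPM in the vancomycin classes and 11.2 CPM in the control classes, and did not run with Hbb-bs. They summed to 2.31 CPM against 3.2 CPM in microglia-like cells, with 3 of 7 against 6 of 7 at 0, to 0.607 CPM against 0.944 CPM in T cell-like cells, and to 0 in cDC2-like cells of both libraries. The part of red cell RNA in this difference was not tested. Alad, a later enzyme of the pathway, was 2-fold higher in plasma cell-like cells, at 68.1 CPM against 16.7 CPM (4.07, 2.92 to 5.84), and in NK cell-like and cDC2-like cells.

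By level, the other iron genes showed further differences between classes of the vancomycin library. Oligodendrocyte-like cells had the highest levels of Slc48a1, a heme transporter, at 778 CPM (770 to 786) against 91.9 CPM in the next class. They also led for Hmox2, the constitutive heme oxygenase, at 312 CPM, for Gpx4 at 1034 CPM, for Gclm, a partner of Gclc, at 173 CPM, and for Fbxl5, which removes iron regulatory proteins when iron is plentiful, at 116 CPM. Oligodendrocyte precursor-like cells led for Slc22a17, a lipocalin receptor, at 770 CPM, and for Ncoa4, which delivers ferritin to lysosomes, at 114 CPM. Endothelial cell-like cells came next for Ncoa4 at 89.0 CPM. The iron chaperone Pcbp1 was also highest in oligodendrocyte precursor-like cells, at 447 CPM (431 to 463), an interval that holds the 436 CPM of monocyte-like cells. The ferroxidase Cp was highest in astrocyte-like cells at 182 CPM (147 to 223), and its interval holds the 175 CPM of border-associated macrophage-like cells. The iron-sulfur scaffold gene Iscu reached 949 CPM in mature dendritic cell-like cells, against 235 CPM in fibroblast-like cells, and the haemoglobin scavenger Hp 209 CPM in monocyte-like cells.

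The genes whose pattern over the 15 vancomycin classes was most like a member's, among 16437 searched, were named by Pearson r of log2(CPM + 10), a description over classes that share a library and its free RNA. For Slc11a1 they were Csf3r, Cx3cr1 and Adgre1 (r from 0.962 to 0.985), all receptors of myeloid cells, with r from 0.911 to 0.984 over the 7 control classes. For Heph they included Rpl22 and Rps7 (r of 0.992 each), both ribosomal protein genes, with r of -0.252 and -0.173 in the control. Control Heph was 4 UMIs in fibroblast-like cells, 1 UMI in microglia-like cells and 0 UMIs elsewhere. Its control r therefore describes no pattern over classes. For Ftl1 they were Grik3 (0.987, and -0.328 in the control), F630206G17Rik (0.937 and 0.561) and Adap2 (0.925 and 0.908). Control Grik3 had 16 UMIs in oligodendrocyte precursor-like cells and 0 UMIs elsewhere, and control F630206G17Rik at most 9 UMIs in a class. The control r of Grik3 thus rests on a single class. For Trf they were Spata2, Rnf13 and Gm30082 (0.842 to 0.863), and for Fth1 Spata2, Stard3 and Rnf130 (0.859 to 0.905). Tfrc was nearest to Pradc1, Pik3ip1 and Pwwp3a, Hmox1 to Adgre1, Zeb2os and Pla2g15, and Ireb2 to Zfp84, Exoc5 and Vps72. Slc40a1 and Ftl1-ps1 had at least 50 UMIs in too few classes for this measure.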

How the data were processed

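Single cells of optic nerves were measured with the 10x Genomics 5′ chemistry, per the labels' protocols, in 1 vancomycin and 1 control library. The authors deposited raw counts of UMIs, one matrix per library. Cell Ranger 7.2.0 made the vancomycin matrix and 6.0.1 the control matrix, per the file headers, on mm10, per the submitters' processing notes. Intron counting was not given in the sources used here.

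Cells with under 500 UMIs, under 200 genes or over 20% mitochondrial UMIs were dropped. A cell took the class with the largest share of its 8 markers detected, where at least 3 were detected and the lead was at least 0.25 (2 markers), and other cells were left out. Cells within 1 marker of either limit made up 6.44% to 44.9% of a vancomycin class and 7.39% to 40.7% of a control class. No doublet caller was run, and the lead leaves out cells with markers of several classes. UMIs were summed per class and scaled to its total (CPM). Intervals are exact at 95% (Poisson for levels, conditional for ratios, Clopper-Pearson for shares) and cover counting error only, and with 1 library per group no test was made. Folds against a class at 0 used 3 counts in that class.

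Members and gene lists were chosen with earlier results of these data known. Of the other iron genes, each role's 2 highest by mean vancomycin level and 2 farthest from a log2 ratio of 0 could be named, and genes counted as 2-fold different in the classes described were added after their values were seen. Genes were annotated with GENCODE M21, which held 32235 of 32285 identifiers (99.85%), and copies were searched with BLAST+ 2.17.0. Python 3.11.15, numpy 2.4.6, pandas 2.3.3 and scipy 1.17.1 were used, and scaling factors alone came from edgeR 4.0.16 and DESeq2 1.42.0 in R 4.3.3. Scripts were tested on simulated data. One gene named by the likeness rule for Heph is not reported here.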

Additional observations from a re-analysis of the deposited data

How the results depend on the processing

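Of the 27 differences of members between the libraries, 19 stayed at least 2-fold under all 11 alternatives of gate, filter, weighting, thinning, scaling and added CPM, and 8 did not. Besides those given with the results, Ftl1-ps1 was -0.48 in T cell-like and -0.55 in plasma cell-like cells and Hmox1 -0.71 in oligodendrocyte precursor-like and -0.69 in cDC2-like cells with 50 CPM added. Scaling by edgeR or DESeq2 shifted every gene by -0.20 to 0.09 on the log2 scale. Less the median of the other classes, log2 ratios changed sign for Ftl1 in T cell-like (0.37), plasma cell-like (0.13) and oligodendrocyte precursor-like cells (0.36), for the summed pair in the same classes (0.40, 0.15 and 0.36) and for Ftl1-ps1 in T cell-like (0.99) and plasma cell-like cells (0.79). Heph then stood at -1.07 in plasma cell-like, -0.27 in microglia-like, -1.38 in oligodendrocyte precursor-like and -1.46 in fibroblast-like cells.

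In oligodendrocyte-like cells Fth1 was 25501 CPM with the stricter gate, 24672 with the looser gate, 28163 with cells weighted equally, 26866 after thinning, 27069 on the reduced total and 25539 without cells over 3 times the median depth (chosen after seeing the data). In the same order Trf was 13828, 13149, 12692, 12766, 14537 and 13372 CPM. The 25 differences of other iron genes were 13 with a minimum of 200 UMIs and 42 with 1 CPM added. The causes were not tested. No paired analysis was possible because each group is 1 library. Classes of about 50 cells limit what could be detected for Tfrc, Slc40a1 and Ireb2.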

Other observations

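Among T cell-like cells, those with UMIs of at least 2 of 5 cell cycle genes (Mki67, Top2a, Birc5, Cdk1 and Ccnb1) had more Tfrc than the others in both libraries, a split made after seeing the data. Tfrc was 43.0 CPM in 201 cycling cells and 13.7 CPM in 3509 others with vancomycin (3.15-fold, 2.50 to 3.94), and 47.6 CPM in 84 and 24.8 CPM in 1744 cells in the control (1.92-fold, 1.38 to 2.61). Fth1 was lower in the cycling cells, at 2322 CPM against 3790 CPM with vancomycin and 2224 CPM against 2878 CPM in the control. Ireb2 did not differ beyond counting error, at 19.9 CPM against 20.3 CPM and 23.8 CPM against 22.3 CPM. Hmox1 was 12.1 CPM against 13.7 CPM with vancomycin (0.884-fold, 0.598 to 1.27) but 35.2 CPM against 9.12 CPM in the control (3.86-fold, 2.56 to 5.74). Cycling T cell-like cells were deeper, with medians of 11569 against 3991 UMIs and 12076.5 against 5058 UMIs. Split the same way, oligodendrocyte precursor-like cells of the vancomycin library had 25.7 CPM of Tfrc in 38 cycling cells and 16.0 CPM in 918 others (1.60-fold, 0.803 to 2.92), within counting error, and 1592 CPM of Fth1 against 2091 CPM.

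Oligodendrocyte-like cells with a UMI of Klk6, the leading gene of the class, had 14734 CPM of Trf against 7745 CPM in those without (1.90-fold, 1.89 to 1.92), and 26104 CPM of Fth1 against 21167 CPM (1.23-fold). They numbered 3036 and 1014 cells with medians of 11093.5 and 7151 UMIs, so depth moves with this split too.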
